A study of Mus musculus with 6 samples.

Results

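miR-330-5p is a microRNA of mammals, and the deposited table lists it as mmu-miR-330-5p_R-2. It is 1 of the 8 small RNA species in that table and was taken as the row with this name. The study sequenced small RNA from vesicles (exosomes) of RAW264.7, a mouse macrophage-like line. The labels describe 3 control libraries grown in medium without RANKL and 3 libraries from osteoclasts induced with RANKL at 50 ng/ml, the cytokine that drives osteoclast formation. Per the labels' protocols the induction lasted 5 days and vesicles were collected over 48 h in serum depleted of exosomes, while no separate times are given for the controls. All 6 libraries come from this 1 line. RAW264.7 is not primary bone marrow, and the small RNA table lists no marker mRNA with which the osteoclast state could be checked. The 12 columns of per-library values in the table have no names, so no level of miR-330-5p is given for a library or group, and control and RANKL-induced vesicles were not compared. The results below are on the listed RNA itself: its ends, hairpin, gene, seed relatives and seed matches in mouse mRNAs.

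A microRNA is cut from the stem of a hairpin, first in the nucleus by Drosha and then in the cytoplasm by Dicer, and 1 of the 2 arms is loaded into an Argonaute protein. The loaded strand finds mRNAs mainly through its seed, nt 2 to 8 from the 5' end, which pairs with sites in 3' untranslated regions (UTRs). Osteoclasts form when RANKL binds its receptor RANK on macrophage-like precursors, and they release vesicles that can carry small RNAs to other bone cells.

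The first sequences show that the listed form and the registered miRNA differ at the 3' end, and that another mouse miRNA has the same seed. They are written 5' to 3' with the seed in capitals. The listed form comes from the deposited table, and the registered sequences are those of RefSeq (GRCm38.p6).
miR-330-5p listed: uCUCUGGGccugugucuuag
miR-330-5p registered: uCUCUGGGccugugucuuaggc
miR-326-3p: cCUCUGGGcccuuccuccagu

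The listed miR-330-5p was 20 nt long and lacked 2 nt at the 3' end of the 22 nt registered form, while 0 nt were missing at the 5' end. Both missing bases were G or C, so the number of G and C bases was 11 in the listed form and 13 in the registered one. Because the 5' end was the registered one, the seed did not change. Every seed match described below therefore holds for both lengths.

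Of the 1738 entries for mature mouse miRNAs in the RefSeq table, 2 had the seed of miR-330-5p: miR-330-5p itself and miR-326-3p, whose gene also lies on chromosome 7 (chr7:99552328-99552348, plus strand). The same 2 were found when nt 2 to 7 were compared. The pair was identical from nt 2 to nt 10. From nt 11 onward 3 of 11 positions were identical, so that 12 of 21 positions matched in all. Of 1679 miRNAs with distinct names or sequences in the table, 468 (27.9%) shared their seed with at least 1 other. In 3 further miRNAs the 7 bases occurred at another position.

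The table named 14 miRBase precursors for miR-330-5p. By their species prefixes, 3 were from rodents (mouse, rat and Chinese hamster), 5 from primates (human, chimpanzee, gorilla, orangutan and rhesus macaque) and 3 from even-toed ungulates (cattle, pig and goat). The other 3 were from horse, dog and big brown bat. The other mouse miRNAs in the table had between 1 and 2 named precursors. These names record where miRBase has an entry, and the sequences of the other species were not compared here.

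Mir330 lies on chromosome 7 (GRCm38, chr7:19181465-19181562, plus strand), inside Eml2 and on its sense strand. Eml2 encodes a microtubule-associated protein. The hairpin is shown because the listed 5p RNA, its opposite arm and the Eml2 exon all end within it. It is the registered precursor in RefSeq (GRCm38.p6), with the 2 registered arms in capitals.
Mir330: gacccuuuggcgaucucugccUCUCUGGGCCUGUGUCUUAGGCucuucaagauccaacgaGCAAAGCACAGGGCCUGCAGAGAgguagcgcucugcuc

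GENCODE M21 annotates 8 transcripts of Eml2. The listed RNA (chr7:19181486-19181505) lay in an intron of 6 of them, in an exon of 1 and upstream of 1. In 5 of the 6 it was the first intron, and these transcripts began 228 to 295 bp before Mir330. In the transcript with the most upstream start, 5044 bp before Mir330, it was intron 4. The exon was exon 1 of a processed transcript with no annotated coding sequence (chr7:19181332-19181548, 217 bp). This exon held the first 84 nt of the 98 nt hairpin and ended 1 nt after the registered 3p arm, which leaves 14 nt of the hairpin in the intron. No other annotated gene lay within 10000 bp of Mir330. The neighbours were Gipr, the receptor for the gut hormone GIP, 15337 bp upstream on the opposite strand, and Gpr4, a proton-sensing receptor, 30975 bp downstream.

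**Figure D1:**
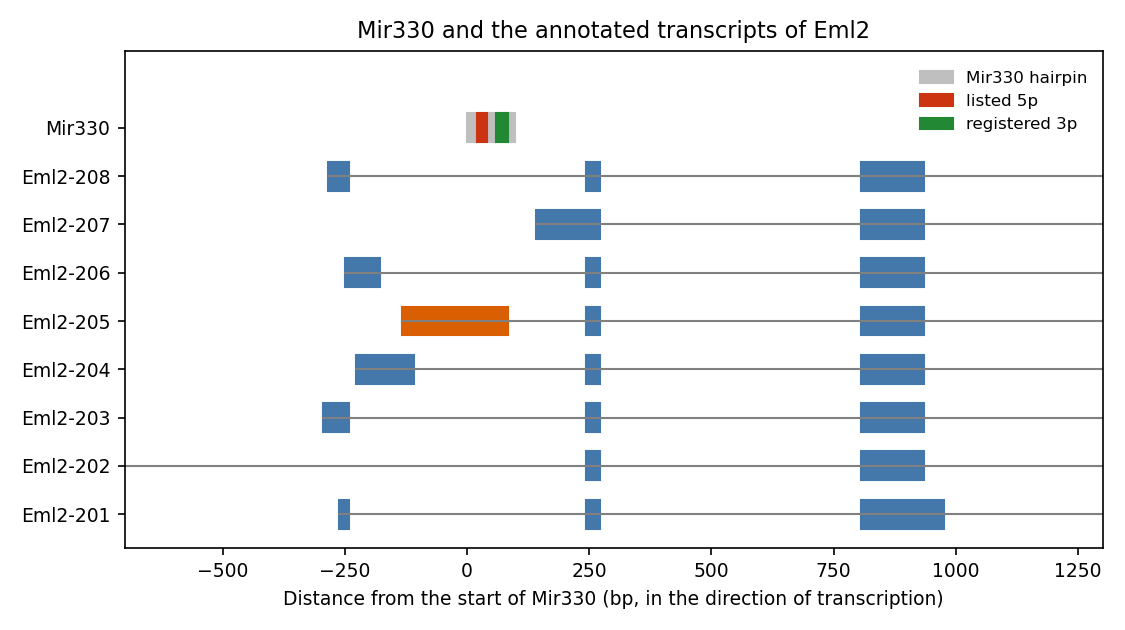
The annotated Eml2 transcripts around Mir330, by distance in bp from the start of Mir330 in the direction of transcription; boxes are exons, lines introns or the rest of the transcript, and the orange box is the exon that holds the listed RNA. The hairpin lies in an intron of 6 of the 8 transcripts, and the orange exon ends inside it.

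The sequence of the listed RNA occurred on the sense strand of 2 of the 141767 annotated transcripts, Mir330 and the processed Eml2 transcript, and on the antisense strand of 0. Allowing 1 mismatch added 0 transcripts on either strand. Introns and intergenic sequence were not searched. Among annotated transcripts, a read of this RNA thus has 1 locus, and reads from the hairpin and from that Eml2 transcript cannot be told apart.

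The listed RNA was almost wholly paired in its hairpin. In the deposited structure 17 of its 20 nt were paired, all 17 with bases of the registered 3p arm, through 10 G-C and 7 A-U pairs and 0 G-U pairs. The 3 unpaired bases were nt 15, 19 and 20. All 7 seed bases were paired, with 5 G-C and 2 A-U pairs. RNAfold paired the same number, 17, in the listed hairpin and in the registered precursor. Over all possible folds its pairing probability was 0.831 to 1.000 for the 17 paired bases. For nt 15 it was 0.117, for nt 19 it was 0.000 and for nt 20 it was 0.009. The 2 registered bases that the listed form lacks were paired in the deposited structure, with a mean probability of 0.995. The listed form therefore ended on the unpaired bases just before them.

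**Figure D2:**
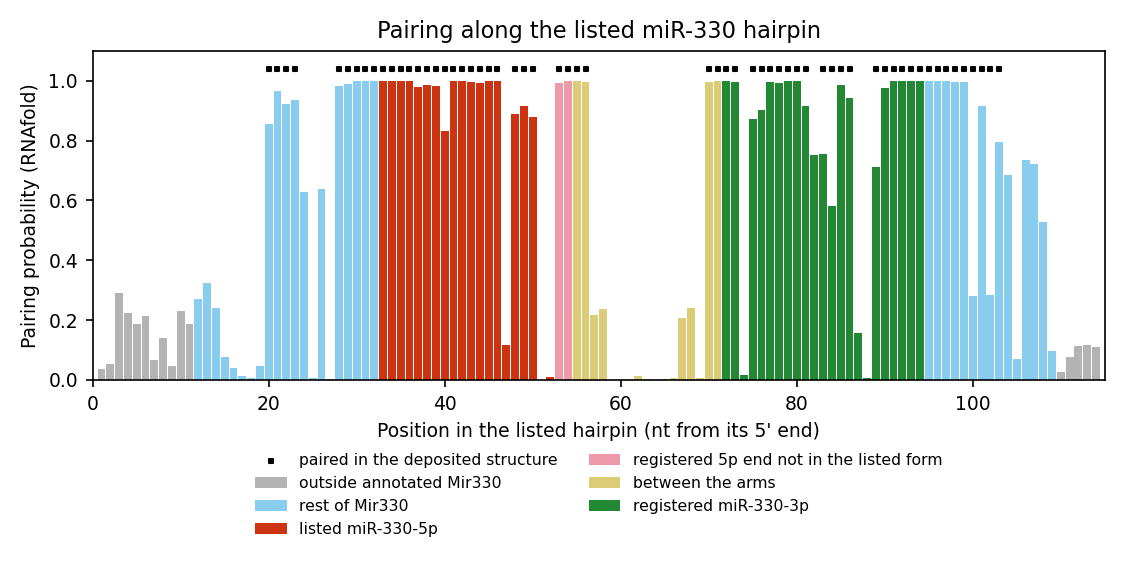
Pairing along the listed 114 nt hairpin, with the position from its 5' end on the x axis and the RNAfold pairing probability (0 to 1) on the y axis; colours mark the parts of the hairpin and black squares the bases paired in the deposited structure. The listed 5p RNA (red) is paired except at nt 15, 19 and 20 of the RNA, and the ends outside annotated Mir330 (grey) are mostly unpaired.

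The listed hairpin is 114 nt long, 11 nt longer at the 5' end and 5 nt longer at the 3' end than the registered one. These 16 nt did not change the minimum folding energy, which was -42.5 kcal/mol for both. Per nt it was -0.373 kcal/mol for the listed and -0.434 kcal/mol for the registered hairpin. The mean pairing probability of the added bases was 0.152 at the 5' end and 0.089 at the 3' end. The authors' deposited table gives an energy of -41 with no unit. RNAfold's energy model gave -41.5 kcal/mol for the deposited structure, which shared 26 of its 30 pairs with the RNAfold structure.

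The hairpin sequence in the deposited table has the listed 5p RNA in capitals and also a 24 nt stretch of the 3p arm (chr7:19181526-19181549). No source used here says what that stretch marks. No row for the 3p arm is in the table, which is the only sheet of its workbook that was read. The stretch is shown because it does not have the ends of the registered miR-330-3p. Seeds are in capitals again.
miR-330-3p registered: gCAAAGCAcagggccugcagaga
3p stretch in the listed hairpin: cAAAGCACagggccugcagagagg

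The 3p stretch began 1 nt later and ended 2 nt later than the registered miR-330-3p. Unlike the missing bases of the 5p arm, the later start shifts the seed. The registered 3p seed was shared with 1 other mouse miRNA, miR-6240, and the shifted seed with 0 entries of the RefSeq table. A second stretch in capitals appeared in 2 of the 8 rows, miR-330-5p and miR-743b-5p.

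Drosha and Dicer typically leave short 3' overhangs on the arms. In the deposited structure the first base of miR-330-5p paired with nt 23 of the registered 3p arm, its last base, so the overhang at that end was 0 nt. The 3p stretch in capitals ended 2 nt past the paired base, a 3' overhang of 2 nt. At the loop end the last base of the registered 5p arm paired with the first base of the registered 3p arm, again with an overhang of 0 nt. The registered 5p arm ran 1 nt past the start of the 3p stretch, and the listed 5p form ended before it. The same values were obtained in the RNAfold structure. Whether these arms occurred as a duplex in the vesicles was not tested.

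Seed matches were then counted for 21004 mouse protein-coding genes, each by its longest annotated 3' UTR. A site was a match to the seed (CCCAGAG in the mRNA) or to nt 2 to 7 followed by A (CCAGAGA). Of all genes, 5317 (25.3%) held at least 1 such site. The 8 nt site, a seed match followed by A (CCCAGAGA), was found in 1106 genes (5.27%). A match is a description of the sequence and is no evidence that miR-330-5p acts on the mRNA. Longer UTRs held a site more often, from 6.3% of the 6727 genes with at most 500 nt to 66.9% of the 1454 genes with over 4000 nt.

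**Figure D3:**
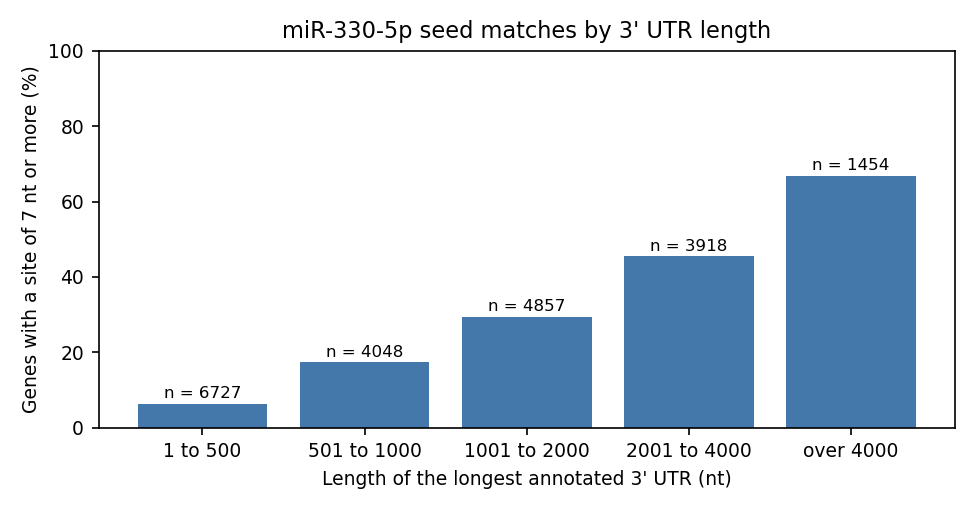
Share of genes (%) whose longest annotated 3' UTR holds a miR-330-5p site of 7 nt or more, by the length of that UTR in nt; bars are all genes of the length class, with their number above. The share rises in each class, from 6.3% to 66.9%.

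Among 20 osteoclast genes, 9 held a site of 7 nt or more and 5 held an 8 nt site, where 25.3% and 5.27% of all genes did. The 3' UTRs of these 20 genes had a median length of 1475.5 nt, against 961 nt for all genes. Per length, the list held 0.381 sites of 7 nt or more per kb and all genes held 0.244. The 8 nt sites were not counted per length. Csf1r, the receptor for the macrophage growth factor M-CSF, alone held 4 of the 12 sites of the list, in 1669 nt. Without Csf1r the list held 0.268 sites per kb. Csf1r was the list gene with the most sites, so leaving it out lowers this value by construction. No gene was left out of the other lists or of all genes. The 5 genes with the 8 nt site included 2 that carry the RANKL signal. These are Tnfrsf11a, which encodes the RANKL receptor RANK, and Traf6, the adaptor that passes the signal on. The others were Ocstamp, needed for the fusion of precursors in mice, Calcr, the calcitonin receptor, and Itgb3, the integrin beta chain by which osteoclasts attach to bone.

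The 5 sites are shown to give their sequence on the mRNA strand, from the GENCODE M21 transcripts (GRCm38), with the 8 nt match in capitals. The windows are chr1:105847654-105847681 (plus strand) for Tnfrsf11a, chr2:101698981-101699008 (plus) for Traf6 and chr2:165394458-165394485 (minus) for Ocstamp. Those of Calcr and Itgb3 are chr6:3686059-3686086 (minus) and chr11:104668944-104668971 (plus).
Tnfrsf11a: caacaccatttcccgaCCCAGAGAtatc
Traf6: tctgacctgccctgttCCCAGAGAacgc
Ocstamp: aatgctcaccctccccCCCAGAGActca
Calcr: ttacatgcttggtgtaCCCAGAGAaaac
Itgb3: aaatcagtgcttaccaCCCAGAGAcaag

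In none of these 5 did the match extend past nt 8 of miR-330-5p, and each of the 5 UTRs held this 1 site of 7 nt or more. The site stood at nt 2804 of the 3115 nt Tnfrsf11a 3' UTR and at nt 1498 of the 4170 nt Traf6 3' UTR. Of the 9 genes with a site, 7 held one in every annotated 3' UTR, while Calcr held it in 3 of 5 and Mitf in 1 of 5. Of those 7, Tnfrsf11a, Traf6, Ocstamp, Itgb3 and Fos have only 1 annotated 3' UTR, so this holds by definition. Csf1r held a site in 2 of 2 and Src in 5 of 5. The remaining osteoclast genes with a 7 nt site were Fos, a subunit of the AP-1 factor, Mitf, a transcription factor of osteoclasts and pigment cells, and Src, the kinase needed for the ruffled border. Among the 11 list genes without such a site were Acp5 (the phosphatase TRAP), with a 3' UTR of 293 nt, Ctsk (the collagenase cathepsin K), with 440 nt, and Nfatc1, the master transcription factor of osteoclasts, with 2338 nt. The 9 genes with a site had a median UTR of 2086 nt and the 11 without had 680 nt.

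**Figure D4:**
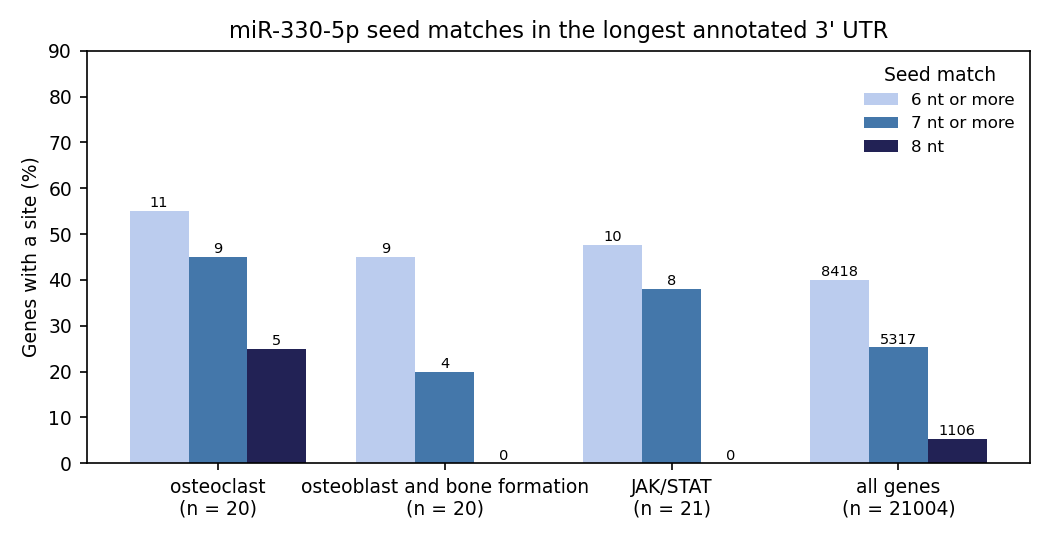
Share of genes (%) whose longest annotated 3' UTR holds a miR-330-5p seed match of 6 nt or more, 7 nt or more, or 8 nt, in 3 gene lists and in all 21004 genes; numbers above the bars are gene counts. The 8 nt site is in 5 of 20 osteoclast genes, in 0 genes of the other lists and in 5.27% of all genes. These shares were not set against UTR length, whose median was 1475.5 nt in the osteoclast list and 961 nt in all genes.

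Among 20 genes of osteoblasts and bone formation, 4 held a site of 7 nt or more (20%, against 25.3% of all genes) and 0 an 8 nt site (5.27% of all genes). The list held 0.119 sites per kb, against 0.244 for all genes, and its median UTR was 1381.5 nt. The 4 were Ibsp, a bone matrix sialoprotein, Bmpr1a and Bmpr2, receptors for bone morphogenetic proteins, and Wnt10b, a ligand of the Wnt pathway. Of these 4 genes, 2 held a site in every annotated 3' UTR, while Bmpr1a held one in 1 of 2 and Wnt10b in 1 of 7. The 2 were Ibsp and Bmpr2, which have only 1 annotated 3' UTR each, so this holds by definition. Ctnnb1, which encodes beta-catenin, held a site in 1 of 3 annotated 3' UTRs but not in the longest. Runx2 and Sp7, the transcription factors that set the osteoblast fate, held 0 such sites and 1 match of 6 nt each. Tnfsf11, which encodes RANKL, and its decoy receptor Tnfrsf11b held 0.

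Among 21 genes of the JAK/STAT pathway, which the study's title names, 8 held a site of 7 nt or more (38.1%, against 25.3% of all genes) and 0 an 8 nt site (5.27% of all genes). The list's median UTR was longer, 1794 nt against 961 nt, and per length it lay below all genes, with 0.215 against 0.244 sites per kb. Jak2 held 0 sites in 1232 nt. Stat3, the transcription factor activated by IL-6 type cytokines, held 1 seed match in 3701 nt, in 3 of its 4 annotated 3' UTRs. Il6ra and Il6st, which encode the IL-6 receptor and its signalling chain gp130, held 2 each in 7102 nt and 5641 nt. Cish, a feedback inhibitor of cytokine receptors, held 2 in 2248 nt. The others, with 1 each, were the kinase Tyk2, the transcription factor Stat2, the STAT inhibitor Pias1 and the phosphatase Ptpn11. Of the 8 genes, 4 held a site in every annotated 3' UTR, and the other 4 were Stat3, Il6ra (1 of 2), Il6st (2 of 5) and Pias1 (2 of 3). Lifr, the receptor for the cytokine LIF, held one in 2 of 5 annotated 3' UTRs but not in the longest. The window of the Stat3 site (chr11:100888246-100888273, minus strand) is shown because Stat3 is named in the study's title. Capitals mark the match to nt 2 to 9.
Stat3: agaagctaggactaaGCCCAGAGgttcc

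A seed match cannot tell miR-330-5p from miR-326-3p, and matches that start at the seed can differ only from nt 11 onward. Which of the 2 miRNAs would act at any of these sites was not tested. Of 4471 seed matches in all longest 3' UTRs, 311 (6.96%) extended through nt 10, the last base the pair shares. Of these, 108 went on to nt 11 of miR-330-5p, 84 to nt 11 of miR-326-3p and 119 to neither. A match through nt 12 or beyond was found at 34 sites for miR-330-5p and at 33 for miR-326-3p, the longest of which ran through nt 17. The longest for miR-330-5p ran through nt 15, at 2 sites: in Gpr39, a zinc-sensing receptor, and in Irak1, a kinase of interleukin-1 and Toll-like receptor signalling. Those windows (chr1:125873568-125873595, plus strand, and chrX:74014936-74014963, minus strand) are shown as the longest matches to miR-330-5p that start at its seed, with the match in capitals.
Gpr39: atccctataACACAGGCCCAGAGAagtg
Irak1: ctgctagctACACAGGCCCAGAGgacac

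The match in Gpr39 is followed by the A of the 8 nt site, and that in Irak1 is not. A match through nt 14 was found in 5 genes: Foxred2, Slc35f6, Sufu (an inhibitor of Hedgehog signalling), Tcf24 and Ube2o. None of the 7 is in the 3 gene lists. The last 2 bases of the registered miR-330-5p, nt 21 and 22, lie beyond all of these matches.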

How the data were processed

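Small RNA libraries were made with a TruSeq kit and processed with ACGT101-mir, per the labels' protocols: 3' adapters and junk were removed, lengths of 18 to 26 nt kept, and other RNAs filtered. The labels state neither its version nor the miRBase release or genome build. The deposited table of 8 species is a sheet of a workbook and has no header, and no other sheet was read. Its GC values were taken as deposited and read as percent, and its folding energy is treated as a deposited score of unstated unit. The 12 unnamed per-library columns were not used, so the planned test of RANKL-induced against control libraries was not run and depth is not given. Replicate spread and precision cannot be given.

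Positions are 1-based GRCm38. Overlaps and 3' UTRs (after the stop codon, protein-coding transcripts) came from GENCODE M21, registered miRNAs from RefSeq. RNAfold 2.7.2 ran at default settings, with its partition function for pairing probabilities. The site search was tested on simulated data. Named genes were list genes with an 8 nt site, the 10 genes with most sites (ties by name; all 8 genes tied at the last places are given), relatives by seed, and neighbours of Mir330; others were named after their values were seen. The members, gene lists and analyses were chosen with earlier results of these data known. Python 3.11.15, NumPy 2.4.6 and matplotlib 3.10.9 were used.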

Additional observations from a re-analysis of the deposited data

How the results depend on the processing

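No paired analysis was possible because no replicate number can be read from the unnamed columns, and for the same reason other choices of normalization, filter, tool and replicate block, and fits without single libraries, were not run. The RefSeq check of Eml2 exons was not run, since the RefSeq table used here gives gene bounds only. The folding energy was -42.5 kcal/mol for the listed hairpin and for the registered precursor, and 17 paired bases were counted in all 3 structures. Summed pairing probabilities, an alternative chosen after seeing the data, gave 16.6 nt. The match to 2 annotated transcripts did not change when 1 mismatch was allowed, also an alternative chosen after seeing the data. The number of genes with a site moved from 5317 to 1106 with 8 nt sites only, to 8418 with 6 nt matches and to 3404 in the shortest annotated 3' UTR. The counts follow from how the sites and UTRs are defined. With 8 nt sites only, the counts were 5 for the osteoclast list, 0 for the osteoblast list and 0 for the JAK/STAT list. With 6 nt matches they were 11, 9 and 10, where 40.1% of all genes held one.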

Other observations

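The longest annotated 3' UTR of the host gene held a seed match for miR-330-5p. This 271 nt 3' UTR of Eml2 held 1 match to nt 2 to 8, at nt 89 to 95 (chr7:19206300-19206306, plus strand). The neighbours Gipr and Gpr4 held 0. Protein-coding Eml2 transcripts with annotated ends at chr7:19206479 and chr7:19206482 reach the Eml2 match. Other protein-coding Eml2 transcripts, with annotated ends at chr7:19206257, chr7:19186358 and chr7:19184919, end before it and lack it. Sites of 7 nt or more are in 25.3% of all genes, and 6.3% of genes with at most 500 nt of 3' UTR hold one. Capitals mark the match.
Eml2: agtacagtaatatataCCCAGAGtatgt

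Most genes held few sites. Of 21004 genes, 15687 held 0 and 156 (0.743%) held 4 or more, Csf1r among them. The 7 genes with 8 or more were D10Wsu102e (20 sites in an annotated 3' UTR of 122583 nt), Vmn1r55 (11), Vmn1r218 (10), and BC004004, Kcnk9, Prx and Ralgapa2 (8 each). Another 8 genes held 7 each: Aak1, Acsf2, Ago3, D1Ertd622e, Fam135b, Grin2b, Mettl16 and Vmn1r58. Ago3 encodes an Argonaute protein, the family that carries miRNAs. Acsf2, named for an acyl-CoA synthetase family, held 5.81 sites per kb. Its 7 sites lay within 287 nt, 40 to 49 nt apart, with a median spacing of 48 nt. Whether this stretch is a tandem repeat was not tested.

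The shift of the 3p stretch changed which mRNAs match. Sites of 7 nt or more for the registered miR-330-3p were in 5083 genes (24.2%), and those for the shifted seed in 4879 (23.2%). The 2394 genes with both were 47.1% of the first set and 49.1% of the second. The 2 seeds share 6 bases, so part of this overlap follows from their sequence. For the 5p and the registered 3p arm, 2041 genes held sites for both, which is 38.4% of the 5p set and 40.2% of the 3p set. Long 3' UTRs hold more sites of any kind, and the overlap was not set against UTR length.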
